A study of Culex quinquefasciatus with 4 samples.

Results

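Of the 13345 genes with a deposited transcript level in larvae of Culex quinquefasciatus, the southern house mosquito, 199 were abundant and steady across all 4 libraries. A gene was taken as abundant when its mean over the libraries was 200 FPKM or more (fragments scaled to the length of the transcript and the size of the library). It was taken as steady when its highest value was at most 1.5 times its lowest. Both limits were applied to the deposited values without rescaling, to genes above 0 in every library. Identifiers in the block of numbers from 20000, which ends at 39803 in this table, were left out. Of the 593 genes with a mean of 200 FPKM or more, 73 had such a number and 1 of the others was at 0 in a library. That left 519 abundant genes, 199 within the limit and 320 past it. The values that chose these genes are the values described below, so they are given as a description and without a test.

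Each library was made from a pool of 200 whole larvae in the fourth instar, the last larval stage before the pupa. The groups were untreated larvae at 0 h, larvae after 24 h in acetone, and larvae after 24 h in permethrin at the LC50 or LC70. These are the concentrations lethal to 50% and 70% of larvae. Permethrin, a pyrethroid, is an insecticide that keeps voltage-gated sodium channels of nerve cells open, and acetone is a common solvent for it. Each group was 1 library, so no value has a replicate error and every difference is one between single pools. There was no untreated library at 24 h, so between acetone and untreated larvae the solvent and the 24 h of time cannot be told apart. In whole bodies, fewer cells of a type and less RNA per cell cannot be told apart, and at either dose a response to permethrin cannot be told apart from which larvae were alive or dying at collection.

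Transcripts that keep a level between conditions are used as reference genes, against which the change of other transcripts is read in quantitative PCR. In insects, genes of ribosomal proteins, translation elongation factors, actin and tubulin are often taken for this use, and their transcripts are among the abundant ones of most growing tissues. Abundant transcripts also weigh on the scaling of a whole library, since FPKM expresses every gene relative to all mapped fragments. None of the 199 identifiers matched the reference table used here, as none of the 13345 did, and the table of values gives no gene names. It is therefore not known here which of the steady genes belong to these classes, the tissue could not be checked against marker genes, and no sequence is shown.

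The steady genes ranged in mean level from 200.9 to 18613 FPKM, with a median of 798 FPKM and quartiles of 322 and 2210 FPKM. The 320 other abundant genes had a median of 410.5 FPKM and quartiles of 260.1 and 769.6 FPKM, so the steady genes lay at higher levels. The ratio of the highest to the lowest value had a median of 1.253 among the steady genes, with a range from 1.05 to 1.499. The highest value was at most 125% of the lowest in 96 of them and at most 110% in 8. Among the other abundant genes the median ratio was 2.15 and the largest 24.98, with 180 genes past 2 and 60 past 4.

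**Figure D1:**
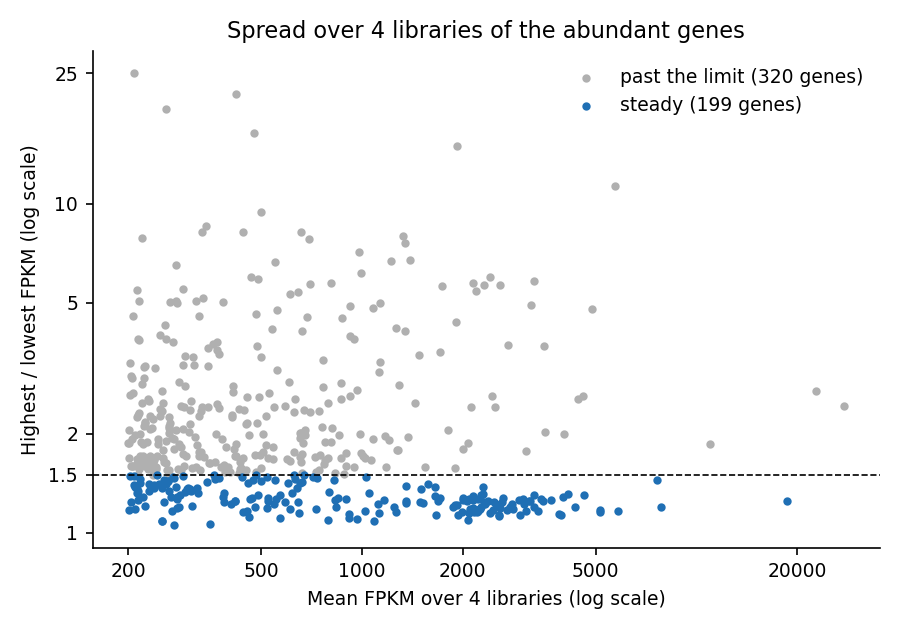
Ratio of the highest to the lowest FPKM over the 4 libraries (log scale) against mean FPKM (log scale), 1 point per abundant gene, with the limit of 1.5 as a dashed line. The 199 steady genes (blue) form a band that narrows above 2000 FPKM, while the 320 others (grey) reach a ratio of 24.98 and are mostly under 1000 FPKM.

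CPIJ011420 was the most abundant steady gene, at 20155 FPKM without treatment, 19580 with acetone, 18542 with the LC50 and 16175 with the LC70. Its value was lower in each library of that order. The gene with the highest mean of the whole table, CPIJ011431, is not a member, at 42454, 31153, 19407 and 17549 FPKM in the same order. The members next in level were ordered otherwise. CPIJ015987 stood at 7949 FPKM without treatment, 7189 with acetone, 8596 with the LC50 and 7628 with the LC70. CPIJ015980 stood at 7118, 7141, 9581 and 6611 FPKM, and CPIJ013966 at 5262, 4843, 5578 and 4958 FPKM. As deposited, all 3 had their highest value at the LC50. CPIJ008809, at 5371, 6251, 6063 and 5609 FPKM, was highest in acetone instead.

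Of the 96 members within 125%, 61 were at 1000 FPKM or more, but of the 8 within 110% only 2 were. CPIJ004079 stood at 268 FPKM without treatment, 282 with acetone, 277 with the LC50 and 272 with the LC70, a ratio of 1.05 between highest and lowest. CPIJ802366 followed at 348, 342, 349 and 362 FPKM (ratio 1.06), and CPIJ012154 at 257, 259, 254 and 239 FPKM (ratio 1.08). Acetone was the highest library for the first and last of these, and the LC70 for the other. CPIJ001289 was at 1113, 1040, 1127 and 1072 FPKM, and CPIJ802196 at 259, 239, 253 and 259 FPKM, each with a ratio of 1.08. With 1 library per group, the order of members by spread has no error attached.

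The limit of 1.5 fell in a continuous range, with 19 members whose highest value was at least 145% of the lowest, and 13 other genes past the limit but within 155%. Just inside it, CPIJ003260 stood at 654, 465, 698 and 687 FPKM and CPIJ008665 at 865, 577, 660 and 578 FPKM. Just outside it, CPIJ000615 stood at 307, 204, 220 and 217 FPKM and CPIJ006225 at 277, 185, 205 and 189 FPKM. In 3 of these 4 genes the untreated library was highest and acetone lowest. At the limit on the mean, CPIJ001214 (200.9 FPKM) and CPIJ014185 (203 FPKM) lay just inside, and CPIJ019577 and CPIJ019325 (each 199 FPKM) just outside.

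On the deposited scale, genes within the limit of 1.5 were about as common among abundant genes as in the whole table. They made up 38.3% of the 519 abundant genes, against 40.8% of all 12946 genes above 0 in every library and outside the identifier range, and 40.9% of those under 200 FPKM. In median-ratio scaling, each library is divided by the median, over genes, of its ratio to the geometric mean. The share was then 36.3% of abundant genes and 55.5% of those under 200 FPKM. As deposited, 12427 of the 12946 genes were under 200 FPKM, so by construction this scaling is centred largely on them. After scaling to one total without the 50 genes of highest mean, the share was 45.8% of abundant genes and 39.3% of those under 200 FPKM. On the deposited scale the share followed the level, however, in a course with a dip. It was 8.58% under 1 FPKM, 24.5% from 1 to 2, 37.2% from 2 to 5 and 47.1% from 5 to 10 FPKM. From 10 to 20 FPKM it reached 52.4%, with 1152 of 2200 genes within the limit. Above that it was 47.2% up to 50 FPKM, 41.8% up to 100 FPKM and 40.2% up to 200 FPKM. It was lowest among abundant genes at 27.8% from 200 to 500 FPKM (74 of 266 genes) and 31.5% from 500 to 1000 FPKM (34 of 108). It was 46.4% from 1000 to 2000 FPKM (26 of 56) and 73% at 2000 FPKM or more (65 of 89). How many fragments stand behind a value is unknown, and the part of depth in these shares was not tested.

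**Figure D2:**
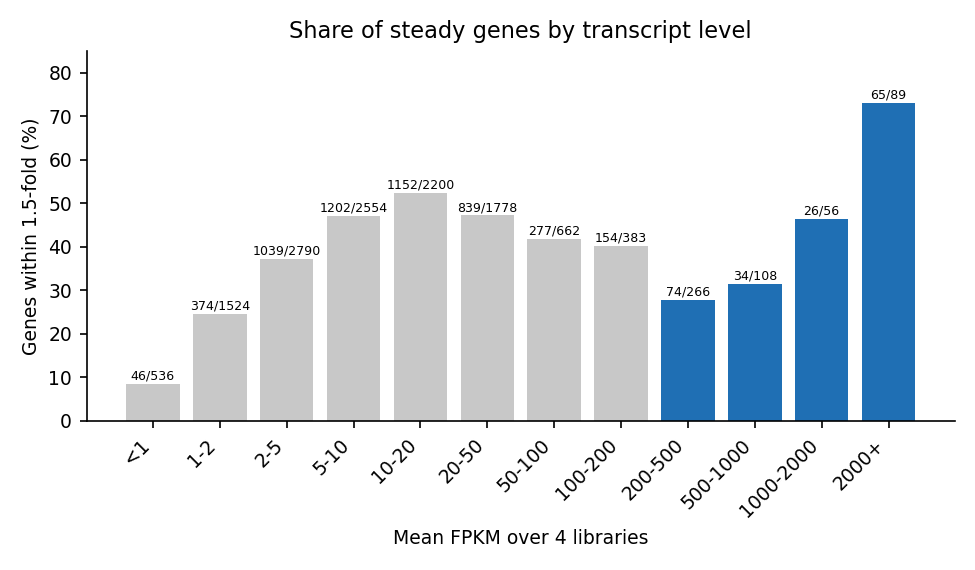
Percent of genes whose highest FPKM is at most 1.5 times the lowest, by mean FPKM, for the 12946 genes above 0 in every library and outside the identifier range; bars carry the number within the limit over the number of genes, and blue bars are the levels of the abundant genes. The share is 27.8% from 200 to 500 FPKM and 73% at 2000 FPKM or more.

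The median over the steady genes, taken in each library apart, was 805 FPKM without treatment, 788 with acetone, 803 with the LC50 and 763 with the LC70. These medians fall on different genes and are not the profile of a gene. Within the limit, the libraries were not evenly placed, and which one was highest turned with the scaling. As deposited, the LC50 library was the highest in 125 of the 199 genes, untreated larvae in 41, the LC70 in 23 and acetone in 10. Acetone was the lowest in 81, the LC70 in 66, untreated larvae in 44 and the LC50 in 8. After median-ratio scaling of the same 199 genes, untreated larvae were the highest in 105 and the LC50 in 14. After scaling without the 50 highest genes, acetone was the highest in 133 and the LC50 in 17. As deposited, among the 320 other abundant genes, untreated larvae were the highest library in 168 and the LC50 in 71. Over all 12946 genes above 0 in every library and outside the identifier range, the LC70 was the highest in 5251 and the LC50 in 4806. Untreated larvae were the highest in 2032 of these and acetone in 857, while acetone was the lowest in 5810. On the deposited scale, the median log2 ratio of the steady genes was -0.05 for acetone over untreated larvae and 0.21 for the LC50 over acetone. It was 0.03 for the LC70 over acetone and -0.17 for the higher over the lower dose. The ratios over acetone share that library.

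Steady genes above 1000 FPKM had more similar profiles than those below, a division made after the values were seen. As deposited, the 91 members at 1000 FPKM or more were highest at the LC50 in 84 cases, and the LC50 was the lowest library in 0. After median-ratio scaling the LC50 was the highest in 4 of the 91 and untreated larvae in 49, and after scaling without the 50 highest genes the LC50 in 9 and acetone in 77. The LC70 was below the LC50 in 90 of the 91 as deposited and after median-ratio scaling, and in 62 without the 50 highest genes. As deposited, the LC70 was above the LC50 in 50.6% of all 12946 genes. Among the other abundant genes it was above in 10 of 30 from 1000 to 2000 FPKM and in 4 of 24 at 2000 FPKM or more. The deposited medians of the 91 members, taken in each library apart, were 2193 FPKM without treatment, 2138 with acetone, 2591 with the LC50 and 2145 with the LC70. Relative to each gene's own mean, the median was -0.04 (log2) without treatment, -0.08 with acetone, 0.17 with the LC50 and -0.07 with the LC70. The SD over the 91 genes was 0.065 to 0.072 in each library on this scale. Among the 108 members from 200 to 1000 FPKM as deposited, 41 were highest at the LC50, 37 in untreated larvae, 22 at the LC70 and 8 in acetone. Their SD over genes was 0.197 in untreated larvae and 0.131 to 0.143 in the other libraries.

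**Figure D3:**
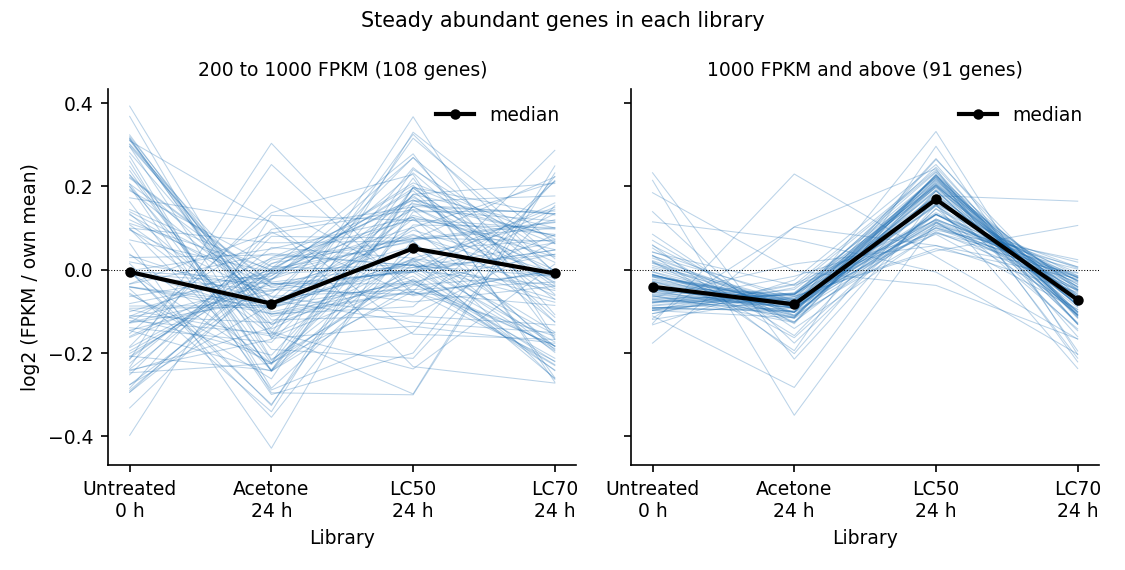
Deposited FPKM of each steady abundant gene in the 4 libraries, as log2 of the value over the gene's own mean, for members from 200 to 1000 FPKM (left, 108 genes) and at 1000 FPKM or more (right, 91 genes); thin lines are genes and the black line is their median. On the right the lines run together, with a median of 0.17 at the LC50 that belongs to the deposited scale, and on the left they cross, with an SD of 0.197 in untreated larvae.

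The closest bundle lay between 2000 and 4000 FPKM, a range that held 56 of the 199 members. As deposited, all 56 had their highest value at the LC50, against 1 after median-ratio scaling and 4 without the 50 highest genes. All 56 were lower at the LC70 than at the LC50, as deposited and after median-ratio scaling, and 40 without the 50 highest genes. This level range, too, was chosen after the fact. A lower LC70 was not particular to members, since as deposited it was above the LC50 in only 4 of 24 other abundant genes at 2000 FPKM or more. The deposited median log2 ratio of these 56 genes was 0.26 for the LC50 over acetone, with an SD of 0.067 over genes, and 0.02 for the LC70 over acetone, with an SD of 0.069. In the 74 members from 200 to 500 FPKM the corresponding SDs were 0.202 and 0.229. An SD over genes of one log2 ratio does not depend on how the libraries are scaled for a fixed set of genes. Steady genes of lower level were also spread more widely. For the 1152 within the limit from 10 to 20 FPKM the SD was 0.197 for the LC50 over acetone and 0.212 for the LC70 over acetone.

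Together the steady genes took 30.8% of the summed FPKM without treatment, 36.6% with acetone, 36.6% with the LC50 and 36.1% with the LC70. Most of this belonged to the 65 members at 2000 FPKM or more, which took 21.9%, 26.2%, 26.4% and 25.6% in the same order. The summed FPKM of the steady genes was 292497 without treatment, 280579 with acetone, 325809 with the LC50 and 280522 with the LC70. The sum over all genes was 949776, 767578, 890902 and 776639 FPKM. The 320 other abundant genes took 40.7% without treatment, 34.4% with acetone, 27.4% with the LC50 and 29.0% with the LC70. The share of the steady genes was lowest in the library where the other abundant genes, CPIJ011431 among them, took the most. Both are shares of the same sum and the limit bounds each steady gene, so this follows in part by construction.

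The steady genes, whose ratios the limit bounds, were also set beside all genes and the other abundant genes, on the deposited scale. Over all 12946 genes, the median log2 ratio was 0.32 for the LC50 over acetone and 0.35 for the LC70 over acetone, against 0.21 and 0.03 for the 199 steady genes. For the LC70 over the LC50 it was 0.0043, against -0.17 for the steady genes, and for acetone over untreated larvae -0.04, against -0.05. In the 320 other abundant genes the median was 0.22 for the LC50 over acetone, close to that of the steady genes. There it was 0.12 for the LC70 over acetone, -0.12 for the LC70 over the LC50 and -0.49 for acetone over untreated larvae. The difference between the doses also varied with level. For all genes from 10 to 20 FPKM, steady or not, the median was 0.33 for the LC50 and 0.38 for the LC70 over acetone. From 500 to 1000 FPKM it was 0.13 and -0.01, and at 2000 FPKM or more 0.23 and 0.02. Acetone over untreated larvae went from 0.30 under 1 FPKM and 0.02 at 2 to 5 FPKM to -0.35 from 500 to 1000 FPKM, and was -0.07 at 2000 FPKM or more. As deposited, steady genes were least common among abundant ones between 200 and 1000 FPKM. This was also the level at which acetone lay furthest below untreated larvae. The share of steady genes at this level was 28.9% as deposited, 27.9% after median-ratio scaling and 37.6% without the 50 highest genes. Ratios by level are given on the deposited scale only.

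**Figure D4:**
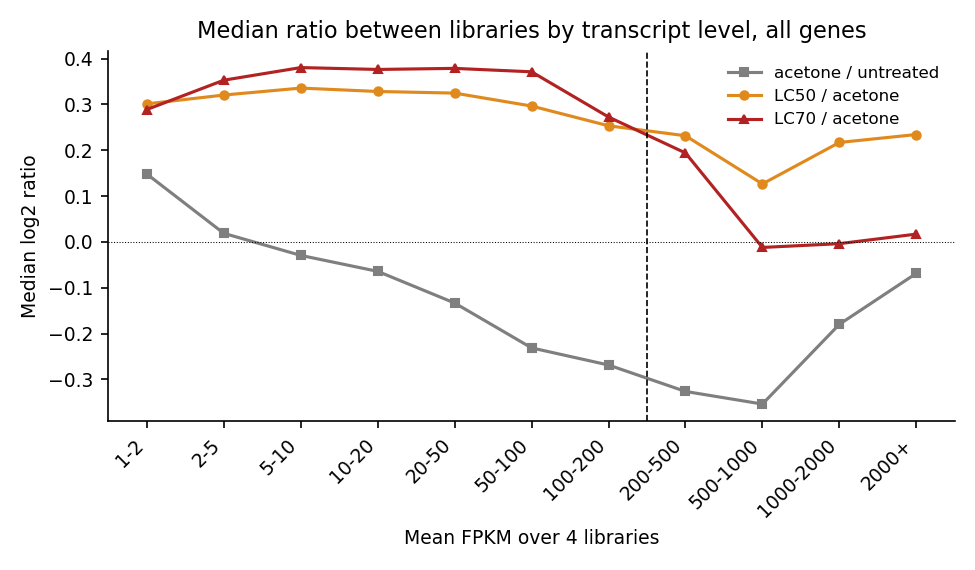
Median log2 ratio of deposited FPKM between libraries by mean FPKM, over all genes above 0 in every library and outside the identifier range with a mean of 1 FPKM or more. The dashed line marks 200 FPKM. The LC70 over acetone goes from 0.38 at 10 to 20 FPKM to 0.02 at 2000 FPKM or more, while the LC50 over acetone stays between 0.13 and 0.34; both share the acetone library.

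Which genes were steady therefore depended in part on the scaling of the libraries. After median-ratio scaling 189 of 520 abundant genes were within the limit, and 156 of the 199 were among them. Here 43 were lost and 33 others entered. On that scale the median log2 ratio of the 199 genes was -0.11 for the LC50 over acetone and -0.33 for the LC70 over acetone. After scaling without the 50 highest genes, 237 of 518 were within the limit, 180 of the 199 among them. The median log2 ratio of acetone over untreated larvae in the 199 genes was then 0.26, against -0.05 as deposited. For the 65 members at 2000 FPKM or more, the median log2 ratio of the LC70 over the LC50 was -0.25 as deposited, -0.27 after median-ratio scaling and -0.07 without the 50 highest genes.

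On the deposited scale, the other abundant genes were past the limit mostly through differences other than that between the doses. Of the 320, 294 were within 1.5-fold between the LC50 and the LC70, or 91.9%, against 91% of all 12946 genes. Between acetone and untreated larvae 131 were within 1.5-fold, or 40.9%, against 74.6% of all genes. Between the LC70 and untreated larvae it was 82, or 25.6%, against 66.2%. Both permethrin libraries were above both controls in 102 of the 320 (31.9%) and in 59 of the 199 steady genes (29.6%), against 56.9% of all genes. They were below both in 84 (26.2%) and 9 (4.52%), against 5.38%. These counts, those over all genes included, belong to the deposited scale. After median-ratio scaling the LC50 was the highest library in 14 of the 199 steady genes and the LC70 in 1. CPIJ005497 was an abundant gene with a large difference, at 414 FPKM without treatment, 456 with acetone, 2793 with the LC50 and 1899 with the LC70. CPIJ802411 stood at 378, 417, 2539 and 1560 FPKM. Both were several times higher in each permethrin library than in either control. In the other direction, CPIJ801597 went from 387 and 410.1 FPKM in the controls to 17.5 and 16.4 FPKM, and CPIJ009715 from 1050 and 525 FPKM to 56.1 and 48.5 FPKM.

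A library that did not take part in the choice gives a measure that the rule did not use. The abundant and steady genes were therefore chosen anew on 3 libraries, and the level in the fourth was compared with the mean of those 3. With the LC70 left out, 223 of 230 steady genes (97.0%) were within 1.5-fold in it, against 162 of 290 abundant genes past the limit (55.9%) and 84.9% of all genes. With the LC50 left out it was 206 of 216 (95.4%), against 178 of 300 (59.3%) and 85.7% of all genes. With acetone left out it was 230 of 259 (88.8%), against 172 of 276 (62.3%) and 79.6%. With untreated larvae left out it was 234 of 314 (74.5%), against 69 of 184 (37.5%) and 73.5%. The share was higher for steady than for other abundant genes in all 4 turns, which share libraries. For untreated larvae, the library of the other time point, it was close to that of all genes. The mean of 3 libraries lies between unequal values in genes past the limit, which by construction can lower their share.

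**Figure D5:**
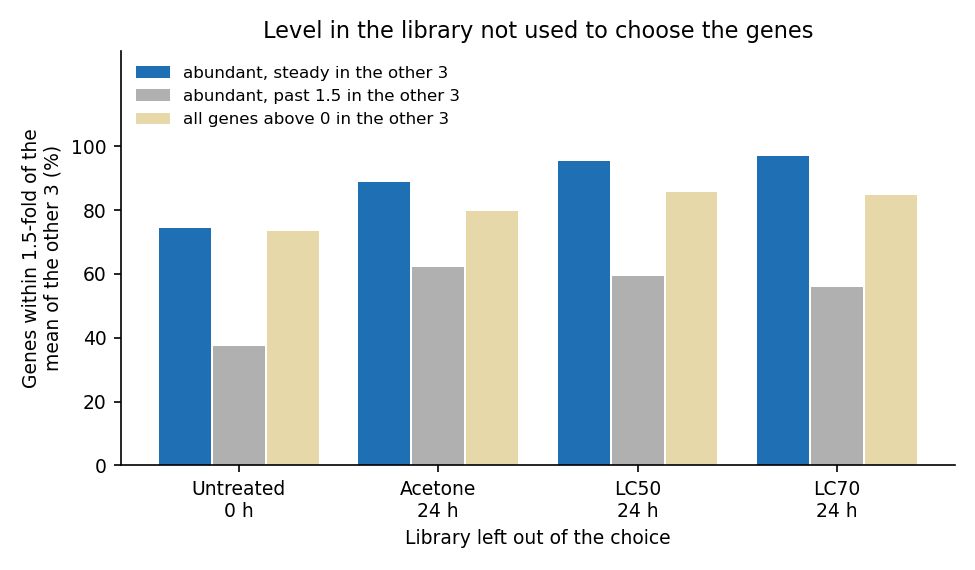
Percent of genes whose FPKM in the library named on the x axis was within 1.5-fold of their mean in the other 3, for abundant genes chosen as steady in those 3 (blue), abundant genes past 1.5 in them (grey) and all genes above 0 in them (yellow). Steady genes reach 97.0% in the LC70 library and 74.5% in untreated larvae, where all genes reach 73.5%.

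Choosing on 1 pair of libraries and reading the other pair avoids any shared library. Of 309 genes that were abundant and within 1.5-fold between untreated larvae and acetone, 296 (95.8%) were within 1.5-fold between the LC50 and the LC70. Of 188 that were abundant but past 1.5-fold between the controls, 175 (93.1%) were, against 90.8% of all genes. After median-ratio scaling these shares of abundant genes were 95.8% and 92.9%, and after scaling without the 50 highest genes 96.4% and 85.8%. No share over all genes stands beside them on either scale. Of 483 genes abundant and within 1.5-fold between the doses, 320 (66.3%) were within 1.5-fold between the controls, and of 28 past it 14 (50%) were, against 74.2% of all genes. This choice of pairs was added after the data were seen.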

How the data were processed

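RNA from whole larvae was sequenced as paired-end mRNA libraries on an Illumina HiSeq instrument, per the labels' protocols. The deposited values were taken as FPKM, because the series' design text names the Cufflinks and Cuffdiff pipeline; the table's header gives no unit. Per the submitters' processing notes, the tools were Cuffdiff, Cufflinks, TopHat, Trimmomatic and CASAVA 1.8. Not given in the sources used here are their settings, the genome build, the annotation and any scaling between libraries. Columns were assigned to samples by treatment and time in their names. Library depth is unknown, so no counting interval is given.

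The rule and the gene lists were chosen with earlier results of these data known. Ratios were taken without a pseudocount, and no test was run, because each of the 4 groups is 1 library. None of the 13345 identifiers matched the 18458 rows of the reference table (assembly VPISU_Cqui), so gene lists could not be applied. Named genes were the 5 members of highest mean, the 5 of smallest ratio, the 2 nearest on each side of either limit, and, among other abundant genes, the 2 furthest above and the 2 furthest below both controls at both doses; CPIJ011431 was added after its values were seen. The selection and scaling were tested on simulated data. Analyses used Python 3.11.15, numpy 2.4.6, pandas 2.3.3, scipy 1.17.1 and matplotlib 3.10.9.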

Additional observations from a re-analysis of the deposited data

How the results depend on the processing

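The rule gave 199 steady genes, 38.3% of 519 abundant ones (95% exact binomial interval 34.1% to 42.7%, used only as a yardstick for which shares moved). The interval takes genes as independent, and the other settings reuse the same genes. It therefore measures neither an error between pools nor a difference between settings. A limit of 125% of the lowest value gave 96 genes (18.5%) and a limit of 2 times gave 339 (65.3%), by construction. A mean of 100 FPKM or more gave 353 genes, and of 500 FPKM or more 125 (49.4%). Requiring 200 FPKM in the lowest library gave a share of 48.0%, and scaling without the 50 highest genes 45.8%. Applied to 3 libraries, the rule gave 314 genes (63.1%) without untreated larvae, and shares of 48.4% without acetone and 44.2% without the LC70. Median-ratio scaling, a pseudocount of 1 and keeping the identifier range gave 189, 202 and 199 genes. The median log2 ratio of the 199 genes over acetone changed sign under both scalings. For the LC50 it went from 0.21 to -0.11 with median-ratio scaling and -0.12 without the 50 highest genes, and for the LC70 from 0.03 to -0.33 and -0.13. The median log2 ratio of acetone over untreated larvae was -0.05 as deposited and -0.01 with median-ratio scaling. Without the 50 highest genes it changed sign, to 0.26. Without the identifier range, the 199 genes took 32.8%, 38.5%, 40.6% and 37.8% of summed FPKM in the order untreated, acetone, LC50 and LC70. The 50 highest genes include members, so leaving them out also removes members. The 166 members left took 24.3%, 28.8%, 26.6% and 26.3% of the remaining sum in the same order, which is not the share of all 199.

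For the library left out of the choice, scalings were added after the data were seen. Scaling without the 50 highest genes put 83.2% of steady genes within 1.5-fold in untreated larvae, 94.8% in acetone and 99.6% at the LC50; for genes past the limit it gave 52.1% at the LC50 and 49.8% at the LC70. Median-ratio scaling gave 72.6%, 91.6%, 98.1% and 98.3% of steady genes in the same order, and 28.2%, 77.7%, 58.4% and 46.7% of genes past the limit. No share over all genes stands beside these values on either scale, so how far they are particular to the members cannot be read from them. Between pairs, scaling without the 50 highest genes gave 85.8% for genes past the limit between the controls and 74.3% for genes within it between the doses. Median-ratio scaling gave 92.9% and 70.2% for the same choices. Beyond what follows by construction, the cause was not tested. No paired analysis was possible because no group has a replicate, and none could be left out.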

Other observations

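Identifier numbers of steady genes were compared with those of other abundant genes. Of the 199 steady genes, 34 (17.1%) had an abundant gene at the number directly before or after their own, against 96 of 320 (30.0%) for the others and 774 of 12946 (5.98%) for all genes. The difference was not tested, and the sources used here do not say whether these numbers follow genome order. Identifiers of 800000 and above held 51 abundant genes, of which 17 (33.3%) were steady, against 182 of 468 (38.9%) of those below 20000. No 2 abundant genes had exactly the same values in all 4 libraries, and keeping the block of identifiers from 20000 to 39803 would have added 12 abundant genes and 0 steady ones.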
